A study of Homo sapiens with 4 samples.

Results

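The mesenchymal state genes were a set of 10 genes named for this work, PRRX1, SNAI2, TWIST1, ZEB1, RUNX1, RUNX2, NOTCH2, NOTCH3, VIM and FN1, taken from 19962 protein-coding genes of GENCODE version 44. A peak was assigned to a gene as a promoter peak when it lay within 3 kb of the start of any of its transcripts, and as a locus peak when it lay within 50 kb of the gene. By this rule the 10 genes held 41 of 47610 peaks in control cells and 41 of 42682 peaks in sgSNHG1 cells. Their windows covered 3258 kb in all. All of the chosen genes were present in the annotation, so none was left out.

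ATAC-seq, in which the Tn5 transposase cuts and tags open chromatin, was applied to SK-N-BE(2)C, a human neuroblastoma line with MYCN amplification. The control cells (2 replicates) carried a non-targeting control gRNA and are labelled wildtype. The sgSNHG1 cells (2 replicates) received Cas9 with an SNHG1 gRNA and are labelled SNHG1 knockout, while the series title calls them a knock-down and the study describes lowered rather than abolished SNHG1 expression. SNHG1 is a long non-coding RNA that also hosts small nucleolar RNAs. Cells of both groups were selected with puromycin and grown from single sorted cells, so that a difference between the groups cannot be told apart from a difference between clones. The labels do not say which clone each replicate came from. The replicates of each group had been combined before peaks were called, which leaves 1 list of peaks per group and no spread between replicates. Every difference below therefore describes these 2 pooled lists, no test between the conditions was made, and the errors given cover counting of fragments only.

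Neuroblastoma cells occur in a pair of interconvertible states. Adrenergic cells resemble committed sympathetic neuroblasts, while mesenchymal cells resemble neural crest precursors, migrate more readily and express matrix and filament genes. PRRX1 and NOTCH receptors can move adrenergic cells towards the mesenchymal state, SNAI2, TWIST1 and ZEB1 drive the epithelial to mesenchymal transition, and RUNX factors with AP-1 take part in the enhancers of mesenchymal cells. SK-N-BE(2)C is known as a mainly adrenergic line. Of 18 adrenergic marker genes, 16, such as GATA3, HAND2 and DBH, had a promoter peak in both lists, while TH, the rate-limiting enzyme of catecholamine synthesis, and SIX3 had none in either. Of the 10 mesenchymal state genes, 9 had a promoter peak in control cells and 8 in sgSNHG1 cells, but only 7 had one in each. Of all 19962 protein-coding genes, 12709 had one in each. Within a single list the shares of adrenergic and mesenchymal genes were thus close, most of all in control cells. With both required, the adrenergic share was the larger. Whether the presence of a promoter peak tells the states apart was not tested.

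Open chromatin was found at the promoters of most mesenchymal state genes in control cells. A promoter peak was present in 9 of 10 in the control list, where 69.7% of all protein-coding genes had one, and in 8 of 10 in the sgSNHG1 list, where the share was 65.6%. ZEB1 and RUNX2 had promoter peaks in control cells alone, as did 6.07% of all genes. NOTCH3 had one in sgSNHG1 cells alone, as did 1.98% of all genes. The remaining 7 genes had promoter peaks in both lists.

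Heights were compared by fold enrichment, the fragment pileup at the summit of a peak over the local background of the same list. The scaled pileup, used as a second measure, is the pileup over the genome-wide background of its list. Over the 7 genes with both, the log2 ratio of the highest promoter value (sgSNHG1 to control) had a median of -0.02, against -0.07 over all 12709 genes with both. It was below 0 in 4 genes and above 0 in 3. None of the 7 was lower by 0.5 or more on the log2 scale, as 7.33% of all genes with both were, and NOTCH2 alone was higher by 0.5 or more, as 2.01% were. No gene of the 7 differed from 0 by more than 2 counting errors. Below the median height of all genes with a promoter peak were 6 of 9 genes of the set in control and 4 of 8 in sgSNHG1 cells. Their highest fold enrichment had a median of 5.93 in control cells and 6.87 in sgSNHG1 cells, against 7.55 and 7.30 over all genes.

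**Figure D1:**
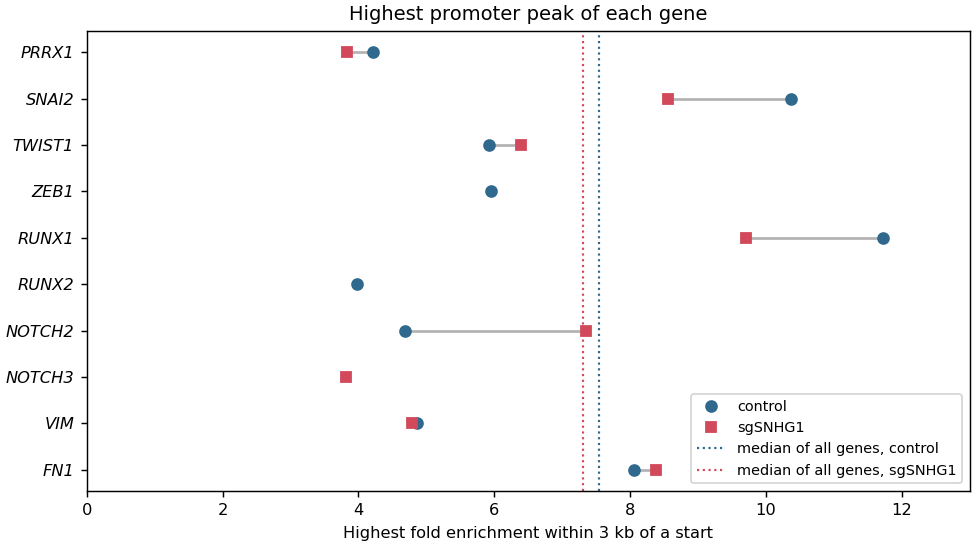
Highest fold enrichment (horizontal axis) of a peak within 3 kb of any start of each mesenchymal state gene, in control (circles) and sgSNHG1 (squares). A missing symbol means that no peak was listed, as for ZEB1 and RUNX2 in sgSNHG1 and NOTCH3 in control, and dotted lines mark the medians of all genes with a promoter peak, 7.55 in control and 7.30 in sgSNHG1. The points of SNAI2, RUNX1 and FN1 sit to the right of both lines in both lists.

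Around the genes the number of peaks was the same in both lists, but not all peaks were the same. The ratio of locus peaks, sgSNHG1 to control, was 1.00 (95% interval 0.633 to 1.58). That of all peaks, 0.896, lay within this interval. Without RUNX2 the locus peaks numbered 37 in control and 34 in sgSNHG1. Of the 41 control peaks, 14 lay at promoters of the genes, 10 at promoters of neighbouring genes and 17 away from any start, and the sgSNHG1 peaks divided into 12, 10 and 19. A control peak without an overlapping sgSNHG1 peak was found 16 times, or 39.0% (95% Wilson interval 25.7 to 54.3%), where the share over all control peaks was 33.3%. An sgSNHG1 peak without an overlapping control peak was found 12 times, or 29.3% (17.6 to 44.5%), where the share over all sgSNHG1 peaks was 21.8%. The intervals cover counting error only and treat peaks as independent, although peaks cluster by gene. RUNX2 held 5 of the 12, and without it 7 of 34 (20.6%) were in sgSNHG1 alone.

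**Figure D2:**
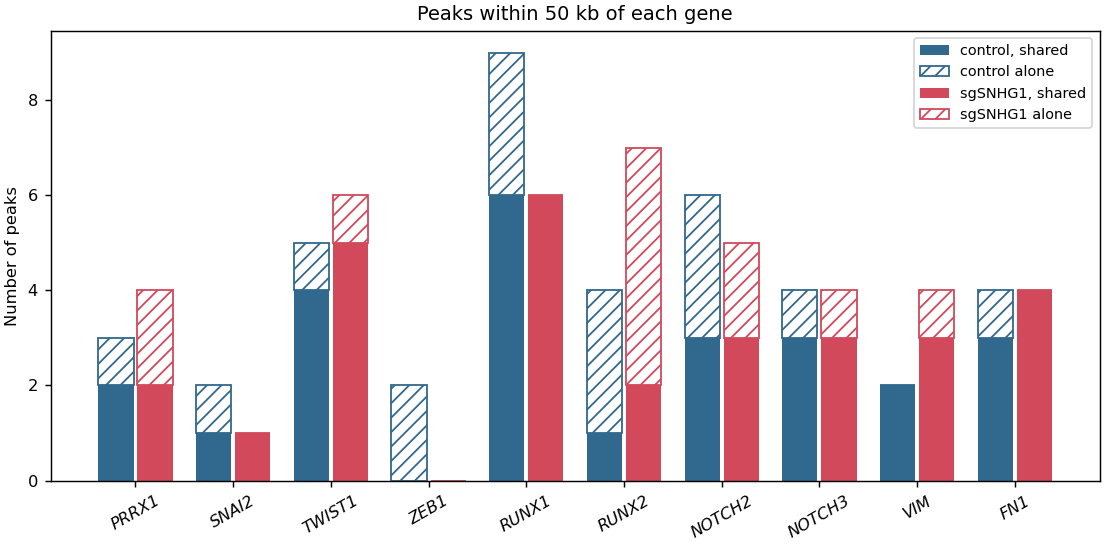
Number of peaks (vertical axis) within 50 kb of each mesenchymal state gene in control (left bars) and sgSNHG1 (right bars), with shared peaks filled and peaks of that list alone hatched. RUNX2 has 5 peaks in sgSNHG1 alone, and ZEB1 has 2 control peaks and none in sgSNHG1.

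Of the peaks found in 1 list alone, 1 of 16 in control and 2 of 12 in sgSNHG1 reached a -log10 q of 10 or more, against 13.2% and 8.19% of all such peaks. They were the higher ZEB1 promoter peak in control and a pair of intronic RUNX2 peaks in sgSNHG1. The others were weak, with a median -log10 q over all list-only peaks of the set of 4.68 in control and 5.56 in sgSNHG1, where shared peaks had 14.1 and 11.6. A list-only peak can be a small change near the limit of calling. The limit was read from the smallest -log10 p in each list, 4.21 in control and 4.39 in sgSNHG1. Had the other list held the same pileup relative to its own genome-wide background, the summit would have passed that limit in 15 of 16 cases for control and in 12 of 12 for sgSNHG1. The margin was small for a SNAI2 and a TWIST1 peak of control cells, at 9.36 fragments against a largest missed pileup of 9. The 12 of 12 for sgSNHG1 followed from the settings, since background was higher in control (2.20 against 1.72) and the control limit lower. All pileups were of called peaks and no counting error was allowed for. The check thus cannot tell a change from an effect of calling.

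Among the transcription factors, ZEB1 was the one with peaks in control cells alone. ZEB1 is a zinc-finger repressor of E-cadherin and other epithelial genes. In control cells a peak lay 940 bp from the start of its gene record, in an intron, at chr10:31319293-31319636 (GRCh38). Its fold enrichment was 5.95 on 23 fragments, and its -log10 q was 10.7. A lower peak over an exon, at chr10:31320521-31320832, reached 3.68 on 14 fragments. Both also lay near starts of ZEB1-AS1, the divergent antisense transcript of the locus. In sgSNHG1 cells no peak was called within 50 kb of ZEB1, a window of 311 kb, and the nearest one was 76085 bp from the higher control peak. Control peaks within 50 kb with none in sgSNHG1 were found for 3.38% of the genes that had any in control. That share covers genes with any number of control peaks, while ZEB1 had 2 and the median protein-coding window held 4. The share among genes with as few peaks as ZEB1 was not measured. At the same pileup relative to background the higher peak would have given 17.9 fragments in sgSNHG1 cells, and the largest pileup that would still have been missed there was 9. For the lower peak the values were 10.9 and 10, so its absence is near the limit of calling. Over the 99 paired peaks within 5 Mb of ZEB1, the log2 ratio had a median of -0.10, or -0.09 by scaled pileup.

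Both ZEB1 summits are given with 50 bases on either side to show the promoter chromatin that was listed in control cells alone, in lower case with matches to the motifs searched in capitals. The higher one, chr10:31319385-31319485, holds TGGGAA, the core bound by RBPJ, the DNA-binding partner of the Notch receptors. The lower one, chr10:31320644-31320744, holds TGTGGT, the core of RUNX sites, and the motif of the GATA factors on the other strand (as TTATCT). These are matches of letters and do not show binding.
ZEB1 higher control peak: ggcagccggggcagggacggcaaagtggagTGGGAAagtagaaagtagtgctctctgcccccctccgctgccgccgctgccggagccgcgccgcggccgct
ZEB1 lower control peak: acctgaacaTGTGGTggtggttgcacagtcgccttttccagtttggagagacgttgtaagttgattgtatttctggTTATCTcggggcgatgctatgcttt

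SNAI2, a zinc-finger factor of neural crest cells that represses E-cadherin, had one of the highest promoter peaks of the set. Its fold enrichment was 10.4 on 91 fragments in control cells and 8.56 on 54 fragments in sgSNHG1 cells (log2 ratio -0.28, counting error 0.25). The peak overlapped the first exon, with its summit at -146 bp from the start in control and -225 bp in sgSNHG1, and was nearly as wide in sgSNHG1 (709 bp) as in control cells (752 bp). A weak control peak at -29255 bp from the start, at 3.37, had no partner in sgSNHG1 cells.

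TWIST1, a bHLH factor of cranial mesenchyme that binds E-boxes, kept an open promoter. The peak there had 30 fragments at a fold enrichment of 5.93 in control cells and 26 fragments at 6.39 in sgSNHG1 cells (log2 ratio 0.11, counting error 0.39). The highest peak of the locus was not at the promoter in control cells. It lay inside the long transcripts that the annotation gives to TWIST1, 9529 bp downstream of the start, at chr7:19107826-19108533, and reached 8.19 on 52 fragments. In sgSNHG1 cells it was listed as a pair of peaks at 5.33 and 3.62. Between the paired summits the log2 ratio was -0.62 (counting error 0.33), the lowest among the pairs inside the 10 genes but under 2 counting errors from 0. By scaled pileup it was -0.43, short of 0.5. A peak 55152 bp downstream of the start went the other way, from 6.87 to 8.46, within 1 counting error (log2 ratio 0.30, error 0.44). The downstream element is shown as the highest TWIST1 peak of control cells, and its summits in the lists were 3 bp apart. The 50 bases on either side of the control summit, chr7:19108057-19108157, hold CATCTG, an E-box form bound by TWIST proteins, at 2 places on the other strand (as CAGATG). They also hold 1 GATA motif on the other strand (as TTATCT).
TWIST1 downstream peak: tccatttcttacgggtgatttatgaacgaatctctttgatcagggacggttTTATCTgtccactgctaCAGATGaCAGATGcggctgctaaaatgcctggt

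PRRX1, a homeobox factor of limb and craniofacial mesenchyme, had a low promoter in both lists. The shared intronic peak near its start had a fold enrichment of 4.21 on 26 fragments in control cells, and 3.84 on 20 fragments in sgSNHG1 cells (log2 ratio -0.13, counting error 0.43). A control peak at -1284 bp from the start, at 3.79, had no partner. In sgSNHG1 cells alone there was an intronic peak 36224 bp into the gene, at chr1:170698816-170699091, at 5.28 on 16 fragments, higher than either promoter value. The PRRX1 locus thus had 3 peaks in control and 4 in sgSNHG1 cells, of which 2 in each were shared. None of the 8 motifs searched was found within 50 bases of that intronic summit, chr1:170698902-170699002, printed as the PRRX1 site with the highest fold enrichment, although the control promoter peak had more fragments and a higher -log10 q (7.85 against 6.74).
PRRX1 intronic sgSNHG1 peak: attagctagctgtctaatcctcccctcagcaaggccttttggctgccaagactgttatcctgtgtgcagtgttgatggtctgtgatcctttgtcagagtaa

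RUNX genes encode the DNA-binding subunits of core-binding factor and are transcribed from a distal and a proximal promoter. RUNX2 is the master regulator of osteoblasts, and RUNX1 is required for the formation of blood stem cells. In both genes the promoter peaks lay at internal starts, and no peak was found within 3 kb of the start of the gene record in either list.

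RUNX2 had the largest exchange of peaks in the set, from 4 locus peaks in control to 7 in sgSNHG1 cells. The control list held 3 weak peaks at the internal start, at chr6:45421907-45422294, chr6:45422732-45422925 and chr6:45423424-45423637, with fold enrichments of 3.98, 3.78 and 3.05 and -log10 q values of 4.67, 4.07 and 2.20. None of the 3 had a partner in sgSNHG1 cells. The weakest one would not have been called there at an equal pileup relative to background. In sgSNHG1 cells 5 peaks along the gene had no control partner. At least 5 such peaks were found around 0.827% of all protein-coding genes. RUNX2 is a long gene of 336 kb, and among the 692 genes at least as long the share was 13.4%. A gain of 3 peaks or more, as here, was found in 8.82% of these long genes, whose median was 8 peaks in control and 7 in sgSNHG1.

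The RUNX2 peaks of sgSNHG1 cells included the strongest list-only peak of the whole set. It lay in an intron 210671 bp from the start of the gene record, at chr6:45538696-45538911, and reached a fold enrichment of 10.0 on 34 fragments. Its -log10 q was 23.5, a value that 0.398% of all peaks found in sgSNHG1 alone reached. An equal pileup relative to background in control cells would have been 43.6 fragments, where up to 11 would have been missed. Passing this limit followed from the settings for all sgSNHG1-only peaks of the set. These values thus cannot tell a change from an effect of calling. A further intronic peak at chr6:45401574-45401787, between the distal and proximal starts, reached 8.83 on 23 fragments, with a -log10 q of 15.5 that 1.79% of such peaks reached. The other 3 lay further into the gene. An intronic peak at chr6:45607920-45608118 had a fold enrichment of 6.70 (pileup 18), a peak over an exon near the end of the gene at chr6:45663603-45663939 had 4.63 (pileup 14), and an intronic peak at chr6:45578287-45578447, near a start of RUNX2-AS1, had 4.78 (pileup 12). The only RUNX2 site shared by both lists was the promoter of SUPT3H, a divergent neighbour whose start lies within RUNX2, at 9.15 in control cells and 8.17 in sgSNHG1 cells. Over the 122 paired peaks within 5 Mb of RUNX2 the median log2 ratio was -0.08, or -0.01 by scaled pileup.

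The 3 intronic RUNX2 peaks with the highest fold enrichment are shown, with 50 bases on either side of the summit, since they stood highest among the RUNX2 peaks of sgSNHG1 alone. The first 2 hold none of the 8 motifs in this stretch. The peak at chr6:45608009-45608109 holds TGACTCA, the AP-1 site, 6 bases before its summit, with CATCTG before it and CAGCTG, another E-box, after it.
RUNX2 chr6:45401615-45401715: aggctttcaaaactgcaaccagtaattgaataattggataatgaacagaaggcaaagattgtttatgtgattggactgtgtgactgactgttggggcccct
RUNX2 chr6:45538778-45538878: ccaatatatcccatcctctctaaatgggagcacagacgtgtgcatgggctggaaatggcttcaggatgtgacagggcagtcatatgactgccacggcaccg
RUNX2 chr6:45608009-45608109: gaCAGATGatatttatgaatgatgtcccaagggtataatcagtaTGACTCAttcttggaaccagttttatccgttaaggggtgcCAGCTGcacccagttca

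RUNX1 had the highest promoter peak of the set, at its proximal internal start, chr21:34888621-34889376. It had 84 fragments at a fold enrichment of 11.7 in control cells, and 51 fragments at 9.71 in sgSNHG1 cells (log2 ratio -0.27, counting error 0.26). A second, weak promoter peak next to it (fold enrichment 3.26) was in control alone. Along the gene record of 1217 kb the number of locus peaks went from 9 to 6, with 3 peaks in control alone and none in sgSNHG1 alone. The control-only intronic sites had fold enrichments of 5.02 and 4.34. One intronic site, 40595 bp from the start of the gene record at chr21:35963931-35964208, was at 5.37 in control and 7.74 in sgSNHG1 cells (log2 ratio 0.53, counting error 0.41). RUNX1 thus had fewer peaks and RUNX2 more in sgSNHG1 cells, on counts of 9 and 4 peaks in control.

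**Figure D3:**
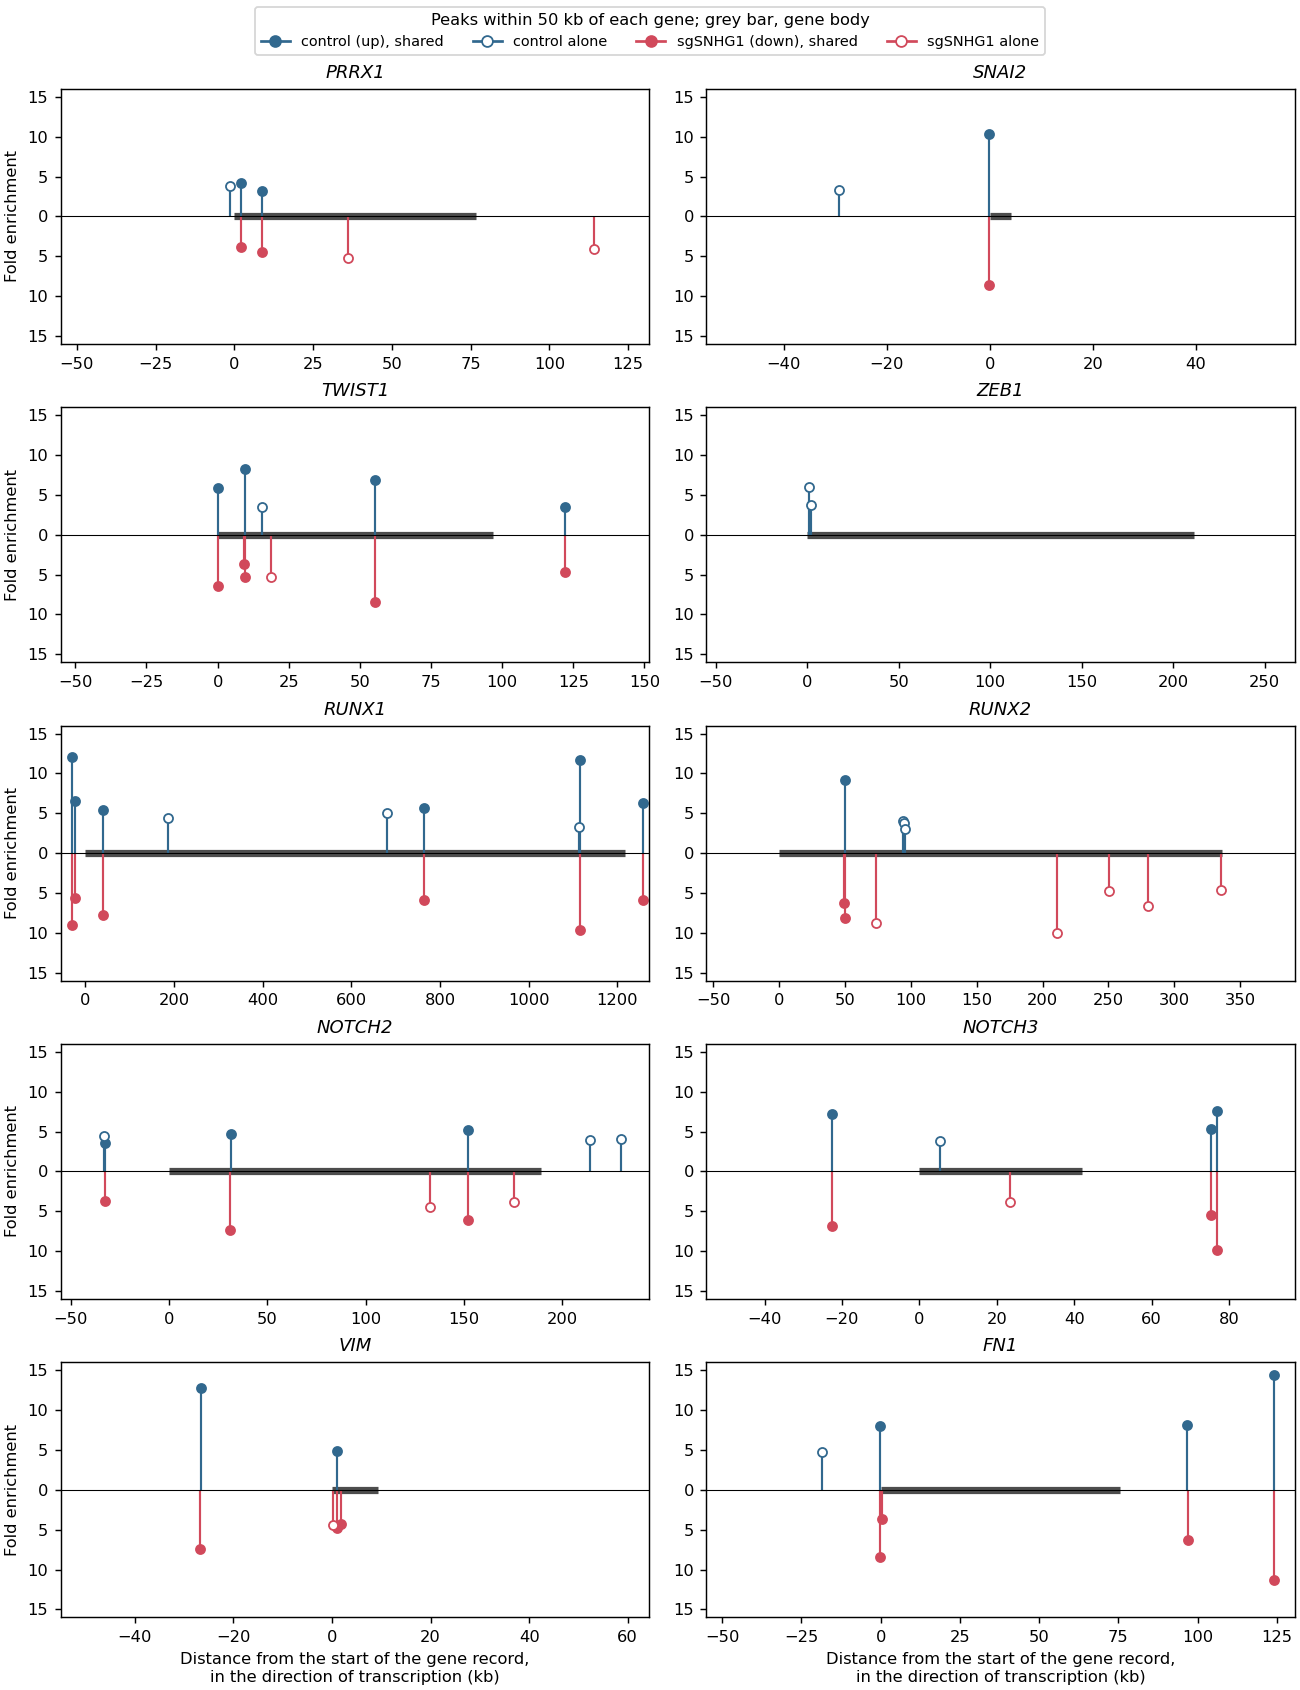
Peaks within 50 kb of each mesenchymal state gene by distance from the start of the gene record in the direction of transcription (horizontal axis, kb), with fold enrichment upwards for control and downwards for sgSNHG1 (vertical axis). Filled points are shared peaks, open points are peaks of 1 list alone and the grey bar is the gene body. The ZEB1 panel has points above the line alone, and the RUNX2 panel has 5 open points below it.

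NOTCH2 and NOTCH3 are single-pass receptors that are cleaved on ligand binding and then act in the nucleus with RBPJ. NOTCH2 was the only gene of the set whose promoter was higher by 0.5 or more. Its promoter peak, at an internal start at chr1:120069079-120069686, had a fold enrichment of 4.68 on 14 fragments in control cells. In sgSNHG1 cells it had 7.36 on 19 fragments. The counting error of the log2 ratio, 0.65, was 0.51, with a 95% interval of -0.34 to 1.65. On the scaled pileup the log2 ratio was 0.80. A second, weak NOTCH2 promoter peak at another internal start, at 3.78 on 13 fragments, was in sgSNHG1 alone. No peak was listed at the start of the NOTCH2 gene record. In that window 81.4% of all 32-base words occur elsewhere in the genome. Multiply mapped reads had been removed, and the part of this in the missing peak was not tested. In the other 9 genes the share of repeated words at the start of the gene record was 21.2% in NOTCH3 and at most 15.5% in the rest. The NOTCH2 locus had 6 peaks in control and 5 in sgSNHG1 cells, of which 3 were shared in each.

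NOTCH3 had no promoter peak in control cells. In sgSNHG1 cells a weak one was found at an internal start near MIR6795, at chr19:15177594-15177734, at 3.82 on 13 fragments, while no peak was listed at the start of the gene record in either list. A weak intronic peak of control cells, 5375 bp from the start, had a fold enrichment of 3.78 and no partner. The other 3 peaks of the locus were shared and lay at promoters of neighbouring genes.

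VIM encodes vimentin, the intermediate filament of mesenchymal cells, and FN1 encodes the matrix glycoprotein fibronectin. At both genes the height of the promoter peak was nearly the same in both lists while its width was not. The highest VIM value was 4.86 on 30 fragments in control cells and 4.79 on 22 fragments in sgSNHG1 cells (log2 ratio -0.02, counting error 0.40). The control peak was 1402 bp wide, at chr10:17229175-17230576, and sgSNHG1 cells had 3 peaks of 154 to 165 bp over the same promoter. The most upstream of them, at chr10:17228467-17228628, had no control partner (fold enrichment 4.42, pileup 20) and held an AP-1 match within 100 bases of its summit.

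For FN1 it was 8.05 on 33 fragments in control cells and 8.38 on 28 fragments in sgSNHG1 cells (log2 ratio 0.06, counting error 0.37). Its control peak of 1014 bp, at chr2:215435704-215436717, was matched by peaks of 437 and 99 bp, and the main summits lay at -169 and -167 bp from the start. The promoter summit thus stayed at one place while the listed width differed.

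The splitting of broad control peaks was seen at 4 places: the VIM and FN1 promoters, the TWIST1 downstream site and the SUPT3H start within RUNX2. A control peak with at least 2 sgSNHG1 peaks was thus found in 4 of 25 shared control peaks of the set and in 5.19% of all shared control peaks. No sgSNHG1 peak of the set spanned 2 control peaks. Peaks were narrower in sgSNHG1 cells in 19 of 25 pairs, where 79.8% of all pairs were, with a median log2 ratio of width of -0.64, against -0.42 over all pairs. The covered length around the 10 genes went from 17335 to 11585 bp. The smallest width in the whole list also differed, 119 bp in control and 92 bp in sgSNHG1 cells, and its part in the narrower peaks was not tested.

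When all 25 pairs of peaks around the genes were compared, 13 were lower and 12 higher in sgSNHG1 cells, with a median log2 ratio of -0.06 against -0.05 over all 31663 pairs. By scaled pileup the median was on the other side of 0, at 0.01. A log2 ratio of -0.5 or lower was found in 2 pairs, the TWIST1 downstream site and the TRDMT1 promoter near VIM, where the share of all pairs was 9.06%. A log2 ratio of 0.5 or higher was found in 2 pairs, the NOTCH2 promoter and the RUNX1 intron, where the share was 5.37%. The TRDMT1 promoter was the one pair beyond 2 counting errors, as 2.68% of all pairs were. Sites away from starts were higher in sgSNHG1 cells in 7 of 10 pairs (6 of 10 by scaled pileup), with a median of 0.14, where 48.3% of all such pairs were higher, with a median of -0.01. Promoters of the set were lower in 4 of 7 pairs (median -0.13) and promoters of neighbouring genes in 6 of 8 (median -0.13), or 4 of 8 by scaled pileup, where 59.2% of all pairs at starts were lower, with a median of -0.07. Whether the loci differ from other peaks of their class was not tested.

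**Figure D4:**
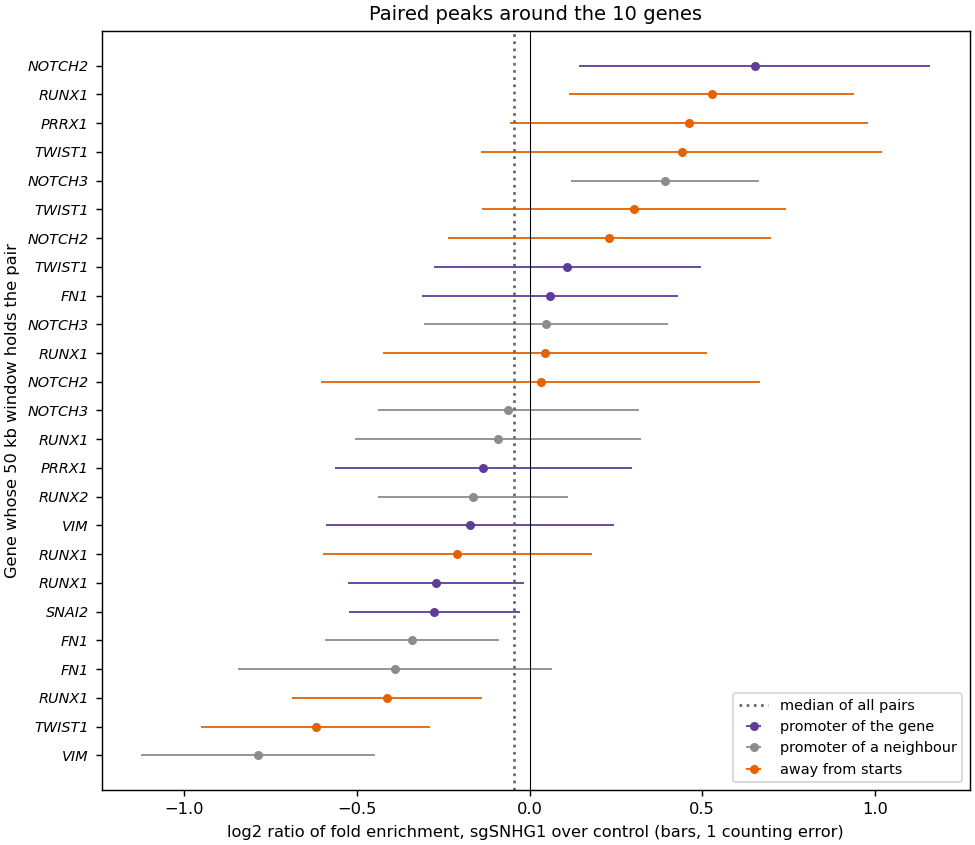
Log2 ratio (horizontal axis) of the fold enrichment in sgSNHG1 to that in control, for the 25 paired peaks around the mesenchymal state genes, 1 row per pair, sorted, with bars of 1 counting error and the dotted line at the median of all pairs, -0.05. The lowest point is the TRDMT1 promoter near VIM at -0.79 and the highest is the NOTCH2 promoter at 0.65.

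Further genes of the same pathways were read from 5 lists of related genes. The transcription factors related to the set were SNAI1, TWIST2, ZEB2, PRRX2, SOX9, FOXC2, MSX1 and MSX2. Of these 8, a promoter peak was present in 7 of 8 in control and 6 of 8 in sgSNHG1 cells. The shares over all protein-coding genes were 69.7% and 65.6%. PRRX2 and FOXC2 had one in control alone, as did 6.07% of all genes, and TWIST2 in sgSNHG1 alone, as did 1.98%. None of the 5 with both differed by 0.5 or more. By scaled pileup SOX9 did, with a log2 ratio of 0.64, and the share of all genes that did so was not measured. ZEB2, the paralogue of ZEB1 and a factor of the neural crest, went from a fold enrichment of 7.53 to 9.17 and so did not share the absence of ZEB1 peaks.

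In the Notch pathway 16 of 18 genes had a promoter peak in control and 13 of 18 in sgSNHG1 cells. Over all protein-coding genes the shares were 69.7% and 65.6%. The 3 in control alone were the receptor NOTCH1 and the ligands JAG2 and DLL4, at low fold enrichments of 3.66, 3.01 and 3.33. A promoter peak in control alone was found for 6.07% of all genes. Of the 13 with both, 9 were lower and 4 higher, where 60.4% of all genes with both were lower. The median log2 ratio was -0.11, against -0.07 over all genes with both, and none was at 0.5 or beyond. By scaled pileup 8 were lower and 5 higher, and MAML3 (-0.90), HEY1 (-0.58) and HEY2 (-0.51) were at -0.5 or lower. The share of all genes at -0.5 or lower by scaled pileup was not measured. By fold enrichment the lowest ratios were of HEY1, a transcriptional target of Notch signalling (-0.48), and LFNG, the glycosyltransferase that modifies Notch receptors (-0.46). ADAM10, the protease of the first cleavage, was higher (0.36). The NOTCH2 ratio thus had the opposite sign to most of its pathway and to most of all genes, at less than 2 counting errors from 0.

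Among the partners of RUNX factors, CBFB, the shared subunit, went from 5.27 to 4.82, and RUNX1T1 and CBFA2T2 were the other 2 of 5 with promoter peaks, in both lists. Of the matrix, adhesion and cytoskeleton genes, 14 of 20 had a promoter peak in control and 15 of 20 in sgSNHG1 cells. Over all protein-coding genes the shares were 69.7% and 65.6%. Of the 13 with both, 10 were higher and 3 lower, with a median of 0.11 against -0.07 over all genes with both, of which 39.6% were higher. By scaled pileup 8 were higher and 5 lower, where 45.6% of all genes were higher, and CALD1 and CDH11 changed sign. ACTA2, smooth muscle actin, was the one gene at 0.5 or more, from 7.15 to 11.3 (0.66, counting error 0.34). This was under 2 counting errors from 0, and 2.01% of all genes with both were at 0.5 or more. The heights of ACTA2, as of every gene in these lists, were the highest near any start and were not required to overlap. The scaled pileup was read at the same peaks. COL6A1 and THBS1 had a promoter peak in sgSNHG1 alone, as did 1.98% of all genes, and FBN1 in control alone, as did 6.07%. For the 16 adrenergic markers with both, 12 were lower and 4 higher by either measure, where 60.4% of all genes were lower by fold enrichment. The median was -0.18, or -0.24 by scaled pileup. The genes behind the counts differed, since GATA3 (0.44, or -0.27 by scaled pileup) and ZNF536 (-0.002, or 0.12) changed sign. INSM1 was the one at -0.5 or lower (-0.75, counting error 0.49), as 7.33% of all genes with both were. By scaled pileup GATA2 (-0.76), INSM1 (-0.70), HAND2 (-0.55) and ISL1 (-0.53) were at -0.5 or lower, and TFAP2B was higher (0.75). The shares of all genes beyond 0.5 by scaled pileup were not measured, so these calls have no background to be read against. These counts are descriptions of 1 pooled list per group, and no difference between the gene lists was tested.

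Letters within 100 bases of each summit were searched on both strands for 8 motifs. The AP-1 site TGACTCA was in 1 of 41 control and 2 of 41 sgSNHG1 peaks around the genes, against 4.70% and 5.64% of all peaks. Both sgSNHG1 peaks with it, at VIM and RUNX2, were without a control partner. The control peak with it, at NOTCH3, was without an sgSNHG1 partner. Among list-only peaks of the set it was thus in 2 of 12 in sgSNHG1 and 1 of 16 in control. The shares over all list-only peaks were 7.65% and 4.28%. The RUNX core TGTGGT was in 6 and 3 peaks (10.6% and 10.2% of all), and the RBPJ core TGGGAA in 5 and 7 (18.2% and 17.9%). The E-box CACCTG, bound by SNAI and ZEB factors, was in 4 and 2 (11.7% and 12.0%), CATCTG in 8 and 8 (22.9% and 23.6%), and CAGCTG in 7 and 5 (19.0% and 20.8%). The GATA motif AGATAA was in 3 and 4 (11.2% of all in both lists), and the TEAD motif ACATTCC in none of either (2.05% and 2.03%). The motifs were searched one by one, and none of them contains another. With 41 peaks per list, no share of a motif is known closely. Promoter peaks of the set were rich in G and C, with a median of 70.9% in control and 67.7% in sgSNHG1 cells, while sites away from starts had 51.7% and 49.8%, and all peaks had 55.7% in both.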

How the data were processed

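ATAC-seq reads of 4 samples, 2 replicates per group, were processed by the authors. They trimmed adapters with cutadapt, aligned pairs to GRCh38 with BWA, removed duplicate, multiply mapped, mitochondrial and blacklisted reads, shifted read ends by +4 and -5 bp to the transposase cut, combined replicates and called peaks per group with MACS2, whose versions and threshold are not given in the sources used here. The deposited score is a whole number made from the -log10 q. The ratio in the deposited lists is the fold enrichment of the summit pileup over local background, each with a pseudocount. The deposited -log10 p and -log10 q come from a Poisson model, the latter adjusted over the genome. Depth per sample is unknown.

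The pileup at each summit was solved from fold enrichment and -log10 p (tolerance 0.001), and 1 control and 0 sgSNHG1 pileups were not recovered. The smallest local background, 2.20 in control and 1.72 in sgSNHG1, gave the scaled pileup. The solver was tested on simulated peaks. Peaks were shared from an overlap of 1 bp, and each peak entered at most 1 pair, with its mutual best overlap. Counting errors are Poisson errors of both pileups, and Wilson intervals are at 95%. A change was called at 0.5 on the log2 scale. Starts came from GENCODE version 44 and sequences from GRCh38. No replicate values were used here, so no test was run. The genes and lists were chosen with earlier results of these data known, and every gene of the set was named. Alternatives covered promoter and locus windows, -log10 q minimums, overlap and scaling. Python 3.11.15, numpy 2.4.6, pandas 2.3.3 and scipy 1.17.1 were used.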

Additional observations from a re-analysis of the deposited data

How the results depend on the processing

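No paired analysis was possible because the replicates were combined before peaks were called, which also left no replicate to leave out. The median log2 ratio of the 25 pairs, -0.06, was above 0 by scaled pileup (0.01, 12 pairs lower) and within 20 kb (0.05), and no other median of the set changed sign. List-only peaks were more often of control than of sgSNHG1 (16 and 12), but not at a -log10 q of at least 5 (7 and 8) or 10 (1 and 2). At a -log10 q of at least 5, promoter peaks in control numbered 9. At 10 or more, 5 genes had a promoter peak in sgSNHG1, promoter peaks numbered 6 in control and 5 in sgSNHG1, locus peaks 18 in each list, and of 13 pairs 8 were lower and 0 rose by 0.5 or more. With the start of the gene record alone, 5 genes had a promoter peak in sgSNHG1 and control had 8 promoter peaks. Within 20 kb there were 26 control peaks, and 6 pairs were lower, 1 of them by 0.5 or more; within 100 kb 19 peaks were in sgSNHG1 alone. Requiring 50% overlap gave 25 list-only peaks in each list. Without peaks at starts of other genes, control had 21 peaks, 9 of them alone, and sgSNHG1 had 22. By scaled pileup 4 pairs rose by 0.5 or more. Without RUNX2, an alternative chosen after seeing the data, 7 peaks were in sgSNHG1 alone. Among these counts and medians 24 moved and 44 did not, and the 26 values of single genes stayed within their counting error. Counts of peaks in 1 list alone depend most on the -log10 q minimum and the overlap. Pileups of 9 to 92 fragments limit every ratio given here.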

Other observations

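Strong promoters of genes next to the mesenchymal state genes were measured in the same windows. The TRDMT1 promoter near VIM reached a fold enrichment of 12.8 on 66 fragments in control cells and 7.42 on 25 fragments in sgSNHG1 cells (log2 ratio -0.79, counting error 0.34). TRDMT1 methylates transfer RNA. The ATIC promoter near FN1, a gene of purine synthesis, went from 14.4 to 11.4 (log2 ratio -0.34, counting error 0.25). The highest ILVBL promoter peak near NOTCH3 went from 7.54 to 9.90 (0.39, counting error 0.27). A peak in an exon of SETD4, at -31000 bp from the start of the RUNX1 gene record, went from 12.01 to 9.02 (-0.41, counting error 0.28).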
